A study of Mus musculus with 6 samples.

Results

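A set of 9 transcription factors that give cells of the embryonic cortex their position was chosen by gene symbol: Pax6, Emx1, Emx2, Lhx2, Nr2f1, Nr2f2, Dmrta2, Dmrt3 and Sp8. Rows were found for 8 of the 9 among 12041 symbols, and where a symbol had several rows the one with the highest mean normalized count was taken. Pax6 was not analysed here. RNA had been sequenced from cortex of C57BL/6 mouse embryos at embryonic day 12.5, in 3 wild-type libraries (WT; columns HC-1, HC-8, HC-10) and in 3 libraries in which Hdac1 and Hdac2 were both conditionally knocked out (cKO; columns HM-5, HM-13, HM-16). Hdac1 and Hdac2 encode class I histone deacetylases, enzymes that remove acetyl groups from histones. The comparison asks which of these factors had a different RNA level after loss of both enzymes. The sources used here do not give the recombinase or its promoter, the deleted exons, the alleles of the WT embryos, or whether each library is a different embryo. The labels name cortex as the tissue, while the series text speaks of brains. The p-values therefore measure the spread between libraries, which may be partly technical.

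Early cortical progenitors carry graded levels of transcription factors that together set where each cortical area will form. Emx2 is high in the caudal and medial cortex and favours caudomedial areas, Pax6 and Sp8 are high rostrally, and the nuclear receptors Nr2f1 (COUP-TFI) and Nr2f2 (COUP-TFII) are high caudally. Lhx2 keeps the cortical field apart from the hem and the antihem, its medial and lateral signalling borders. The DM-domain factors Dmrt3 and Dmrta2 act in the medial and caudal cortex and restrain ventral genes in dorsal progenitors. These gradients are set by FGF signals from the rostral midline and by WNT and BMP signals from the hem.

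The files gave levels as FPKM, read counts scaled to transcript length and library size. Whole reads recovered from these values numbered 9712556 to 11922665 per library. Hdac1 stood at 212, 197 and 193 FPKM in the WT libraries and at 45.5, 61.0 and 47.4 in the cKO libraries, and Hdac2 at 134, 216 and 272 against 37.6, 61.7 and 47.5. Both targeted genes were therefore lower in every library headed HM, at 25.6% and 23.6% of the WT mean. All 11 markers of cortical progenitors and neurons had a row. The progenitor markers Vim (1774 FPKM in WT, 1702 in cKO), Sox2 (275 and 320.5) and Hes5 (136.5 and 165) were near level or higher in cKO. Among neurogenic and neuronal markers, means were lower in cKO for Neurog2 (140 and 110), Tbr1 (103.5 and 82.2), Tubb3 (907 and 712), Neurod6 (31.3 and 18.05) and Dcx (3.45 and 2.63). None of these 8 was called in all 6 libraries, and without HM-13 Tbr1 and Tubb3 were called lower (limma adjusted p = 0.0120 and 0.0350). Eomes, also neurogenic, went the other way (2.01 and 2.37, limma adjusted p = 0.642). The progenitor marker Nes (0.507 and 0.501) did not pass the filter on low values. The list had a median log2 fold change of -0.20, with 4 of 10 tested genes at an unadjusted p under 0.05, and its part in the results was not tested. The ribosomal RNA row Rn45s held 29.7% of the reads of HM-13 and 0.506% to 2.48% of those of the other libraries. Markers of the cortical hem and choroid plexus were low in HC-10, and ventral telencephalic markers were low in HC-1 and HM-5; their values are given beside the results below. Markers of blood cells, mesenchyme, vessels and surface epithelium gave 0 called genes by limma, with 1 (epithelium) at an unadjusted p under 0.05 and 0 by voom. Of the microglial markers 2 of the 6 tested rose, where 9.62% of all genes tested were called higher. Their summed level was 51.1 to 62.65 FPKM in WT and 69.1 to 81.0 in cKO. With 1 library left out the count ran from 0 (without HM-16) to 3 (without HC-1), with 1 without HC-10 or HM-5.

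Reference sequence upstream of the RefSeq starts was read for the genes on which the results turn, from the RefSeq promoter table on GRCm38.p6. All 8 genes matched, with 12 start windows of 250 bases. The Lhx2 window at chr2:38339031-38339280 on the plus strand is shown whole, since Lhx2 is the gene whose 2 rows gave different results. It holds 25 CpG dinucleotides, against a median of 6 over 32851 such windows. For Emx2 and Nr2f1, the called genes, the RefSeq window lies inside an exon of the GENCODE annotation, so only 30 bases around the motif match are shown, at chr19:59458508-59458537 on the plus strand and at chr13:78199070-78199099 on the minus strand. Capitals mark matches on either strand to the GC box letters GGGCGG, which 32.7% of all windows hold.
Lhx2: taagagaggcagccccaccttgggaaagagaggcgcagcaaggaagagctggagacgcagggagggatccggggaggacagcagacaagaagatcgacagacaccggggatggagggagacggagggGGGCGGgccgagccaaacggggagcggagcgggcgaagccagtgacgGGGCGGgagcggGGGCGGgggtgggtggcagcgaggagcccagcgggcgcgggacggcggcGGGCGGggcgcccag
Emx2: gtcggcggccGGGCGGGCGGctggaggcac
Nr2f1: ggcccatgcccgCCGCCCccggcgctgcgc
The Lhx2 window held 4 matches, the Emx2 window 2 that overlap each other, and the Nr2f1 window 1. The homeobox core TAATTA, found in 4.84% of windows, and the nuclear receptor half-site AGGTCA, found in 14.0%, had no match on either strand in these 3 windows. These counts describe the letters only.

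Of the 7 factors tested, Emx2 and Nr2f1 rose in the cKO libraries and none fell (limma, Benjamini-Hochberg adjusted p under 0.05). Across all 9359 genes tested, 18.0% were called with 9.62% called higher and 8.39% called lower. The 2 of 7 factors called make 28.6%, a description of few genes beside that background. WT and cKO values did not overlap for the same 2 factors, against 39.1% of all genes, or 19.5% with cKO higher. The median log2 fold change of the 7 factors was 0.15, beside -0.01 for all genes tested. Sp8 did not pass the filter of at least 1 FPKM in at least 3 libraries. In RNA from whole tissue, fewer cells of a type and less RNA per cell cannot be told apart.

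**Figure D1:**
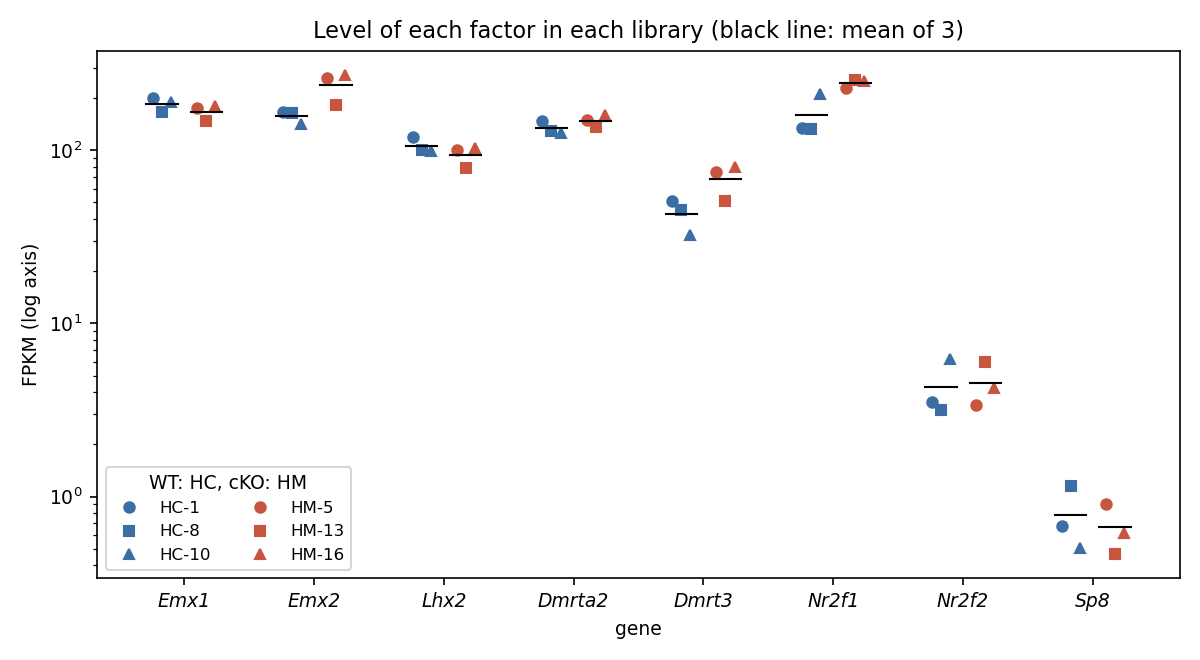
FPKM of each of the 8 factors (log axis) in the 3 WT libraries (blue, HC) and the 3 cKO libraries (red, HM), with the mean of each group as a black line. Emx2 and Nr2f1 were higher in every cKO library than in any WT library, and Sp8 and Nr2f2 lay far below the other factors.

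The homeobox genes Emx1 and Emx2 are paralogues expressed across the dorsal telencephalon, and of the pair Emx2 has the stronger part in area position. Emx2 (chr19:59458372-59465357, plus strand, GRCm38) stood at 167, 164 and 142 FPKM in WT (HC-1, then HC-8, then HC-10). In cKO (HM-5, then HM-13, then HM-16, an order kept from here on) it stood at 262.5, 184 and 273. The lowest cKO library, HM-13, was still above the highest WT library, so the groups did not overlap. The mean rose 1.52-fold, from 158 ± 13.7 (SD, n = 3) to 240 ± 48.9 (SD, n = 3), a log2 fold change of 0.58 (SE 0.15, 95% interval 0.23 to 0.94, adjusted p = 0.0360 by limma). The counting error behind these values was small, with 3926 to 7713 reads per library. The call held in 1 of the 6 fits that left out 1 library, the one without HM-13 (adjusted p = 0.00424), and the others gave limma adjusted p-values of 0.0669 to 0.129. The authors' deposited table gives Emx2 a log2 fold change of 0.57 with a false discovery rate of 4.38e-05. Of the 9870 rows with such a rate in that table, where a gene can have several rows, 19.3% are under 0.05.

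Emx2os is a long RNA transcribed from the opposite strand, head to head with Emx2. The 2 annotated genes overlap by 264 bases (chr19:59458372-59458635), and 196 bases of the Emx2 start window lie within Emx2os. It stood at 14.97, 14.8 and 13.1 FPKM in the WT libraries and at 23.2, 18.8 and 24.7 in the cKO libraries. HC-10 and HM-13 were the lowest of their groups for both genes, and the groups did not overlap. Emx2os rose 1.56-fold, with a log2 fold change of 0.60 (SE 0.11, limma adjusted p = 0.0141). The call was lost without HM-5 (adjusted p = 0.0669 by limma) or without HM-16 (0.0568). The sources used here do not say whether counting used the strand, so reads from the overlap of Emx2 and Emx2os cannot be told apart.

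Emx1 (chr6:85187438-85204462, plus strand) was not called. In WT it measured 201, 166 and 191 FPKM, and in cKO 176, 147 and 179. The groups overlapped, and HM-13 was the lowest of all 6. The mean in cKO was 90.1% of that in WT (186 ± 17.9 and 167 ± 17.7, SD, n = 3 each), with a log2 fold change of -0.15 (95% interval -0.39 to 0.09, limma adjusted p = 0.339). That interval runs from 0.765-fold to 1.06-fold.

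Since both genes are measured in the same library, the Emx2 to Emx1 ratio does not depend on how libraries are scaled. The ratio of FPKM was 0.832, 0.989 and 0.743 in the WT libraries and 1.49, 1.25 and 1.52 in the cKO libraries. Emx2 was thus below Emx1 in every WT library and above it in every cKO library. The difference in the log2 ratio was 0.74, with p = 0.1 in an exact two-sided permutation test, the smallest that 20 splits of 6 libraries allow, and 0.133 after Benjamini-Hochberg adjustment over 4 ratios.

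**Figure D2:**
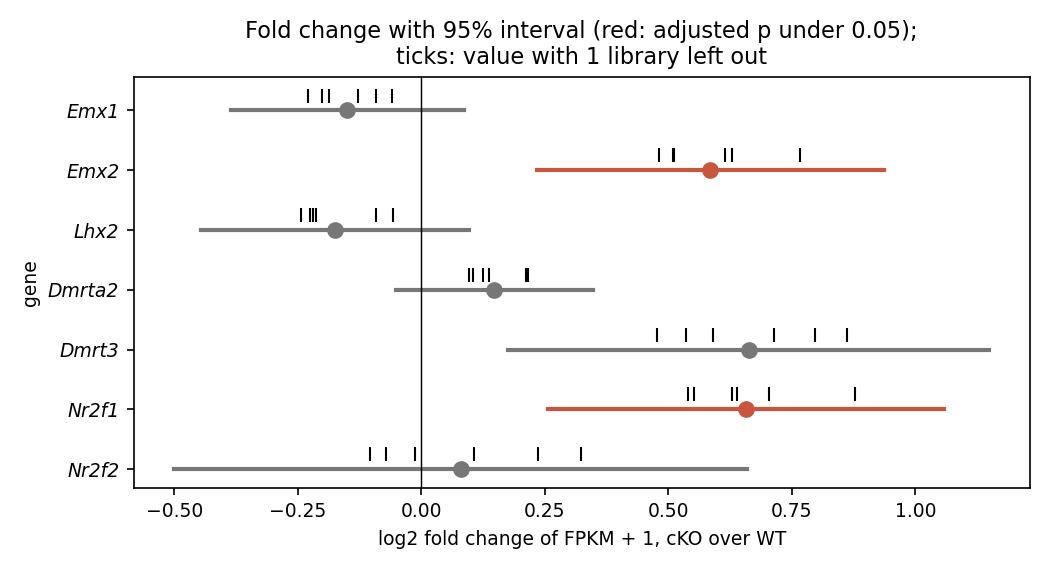
Log2 fold change (cKO over WT, of FPKM + 1) for the 7 factors tested, with the 95% interval from limma as a bar and the values with 1 library left out as ticks. The intervals of Emx2, Nr2f1 and Dmrt3 lie above 0, and Dmrt3, in grey, missed the adjusted threshold.

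Lhx2 (chr2:38339281-38369733, plus strand), a LIM-homeobox factor, had 2 rows in the table, of 2295 and 2234 bases. The longer one, which had more reads, stood at 119, 101 and 99.6 FPKM in the WT libraries and at 101, 79.5 and 103 in the cKO libraries. The groups overlapped, with HM-13 lowest. The log2 fold change was -0.18 (SE 0.12, 95% interval -0.45 to 0.10, limma adjusted p = 0.329), which spans 0.734-fold to 1.07-fold.

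The shorter Lhx2 row stood at 26.2, 21.9 and 24.0 FPKM in the WT libraries and at 16.5, 13.4 and 16.9 in the cKO libraries. Every cKO library was below every WT library. When all rows of the table were fitted singly, a fit chosen after seeing the data, this row fell to 64.8% of its WT mean, from 24.1 ± 2.15 to 15.6 ± 1.95 FPKM (SD, n = 3 each). On the log2 scale the change was -0.60 (SE 0.11, 95% interval -0.86 to -0.34, limma adjusted p = 0.0129). Of the 10513 rows in that fit 15.8% were called, and 7.31% were called lower in cKO. The shorter row kept its call whichever of the 6 libraries was left out (limma adjusted p = 0.0181 to 0.0447). The authors' deposited table gives this row a false discovery rate of 7.22e-05, and 0.321 for the longer row.

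Of the reads counted in these 2 rows, the shorter row took 17.65%, 17.5% and 19.02% in the WT libraries. In the cKO libraries it took 13.75%, 14.05% and 13.8%. Any Lhx2 reads assigned to neither row are outside this share. The groups did not overlap, and the difference in means was -4.20 percentage points (exact two-sided permutation p = 0.1, the smallest possible). Both rows carry the same Ensembl transcript identifier, so which Lhx2 transcript or start each one stands for is not known from the table. RefSeq lists 2 mRNAs for Lhx2, and the start window printed above is that of the upstream one.

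**Figure D3:**
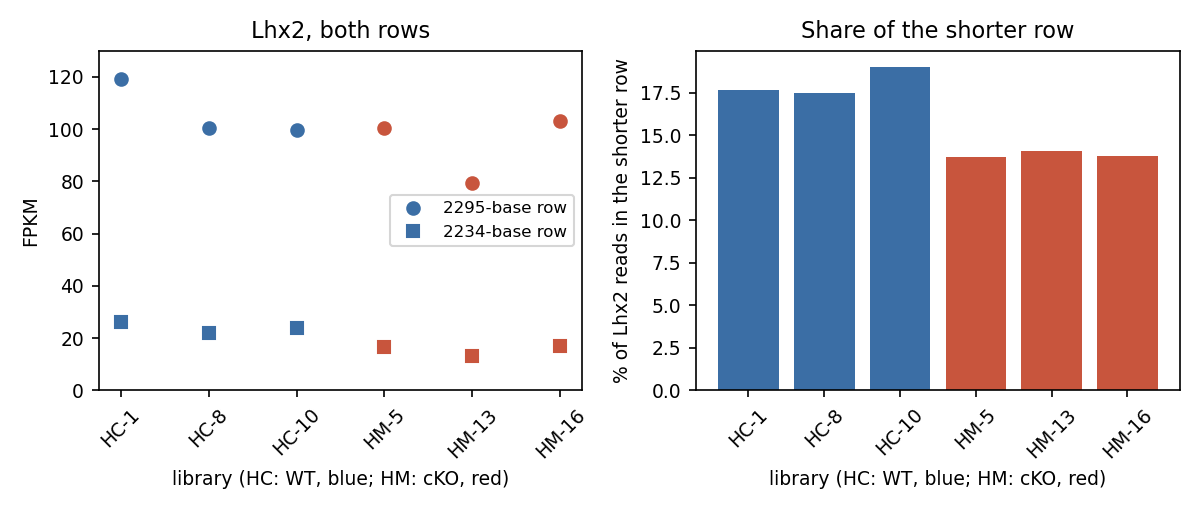
Left, FPKM of the 2 Lhx2 rows (circles for 2295 bases and squares for 2234 bases) in each library. Right, the percentage of the reads counted in these 2 rows that fell in the shorter row, with bars from 0. The share was 17.5% to 19.02% in the WT libraries (blue) and 13.75% to 14.05% in the cKO libraries (red).

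The DM-domain gene Dmrt3 (chr19:25610301-25623921, plus strand) stood at 51.0, 45.3 and 32.3 FPKM in the WT libraries. In the cKO libraries it stood at 74.5, 50.8 and 80.2. HM-13 lay just under HC-1, so the groups overlapped there, while the other 2 cKO libraries were above every WT library. The mean was 1.598-fold higher in cKO (42.9 ± 9.57 and 68.5 ± 15.6, SD, n = 3 each), and the log2 fold change of 0.66 (SE 0.21, 95% interval 0.18 to 1.15) missed the threshold with a limma adjusted p of 0.0650. It passed without HM-13 (log2 fold change 0.86, adjusted p = 0.0221 by limma) and with voom on recovered reads (adjusted p = 0.0429). The authors' deposited table gives it a false discovery rate of 0.0534.

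Dmrta2 (chr4:109978053-109983687, plus strand), the related factor with the higher level, stood at 147, 129 and 126 FPKM in the WT libraries and at 150, 136 and 159 in the cKO libraries. The groups overlapped, and the log2 fold change was 0.15 (95% interval -0.05 to 0.35, limma adjusted p = 0.265), or 0.965-fold to 1.27-fold. The Dmrta2 to Dmrt3 ratio was 2.88, 2.85 and 3.89 in the WT libraries and 2.02, 2.67 and 1.99 in the cKO libraries. Every WT library had the higher ratio, with a log2 difference of -0.53 (exact two-sided permutation p = 0.1, 0.133 adjusted over 4 ratios).

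Another gene of this family, Dmrta1, was not among the 9 factors but stood on a list of their cofactors, paralogues and regulators. Dmrta1 stood at 41.2, 44.3 and 41.1 FPKM in the WT libraries and at 76.95, 63.3 and 71.9 in the cKO libraries, with no overlap. It rose 1.68-fold, with a log2 fold change of 0.73 (SE 0.08, limma adjusted p = 0.00272), and was called in all 6 fits with 1 library left out.

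The nuclear receptor Nr2f1 (chr13:78188973-78199757, minus strand) stood at 134.5, 132 and 212 FPKM in the WT libraries. It stood at 230.5, 256 and 252 in the cKO libraries. The cKO libraries lay close together, while HC-10 was far above the other 2 WT libraries and nearest to HM-5. The mean rose 1.54-fold, from 160 ± 45.5 to 246 ± 13.8 FPKM (SD, n = 3 each), with a log2 fold change of 0.66 (SE 0.17, 95% interval 0.26 to 1.06, limma adjusted p = 0.0378). Without HC-10 the log2 fold change was 0.88 (limma adjusted p = 0.00335), and without any one of the other 5 libraries the call was lost (0.54 to 0.70, adjusted p = 0.0752 to 0.112). The authors' deposited table gives 0.52, with a false discovery rate of 0.0497.

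An antisense RNA, A830082K12Rik, overlaps Nr2f1 by 1741 bases. It stood at 11.7, 9.46 and 14.3 FPKM in the WT libraries and at 12.2, 16.5 and 12.8 in the cKO libraries, with overlapping groups. Its log2 fold change was 0.22 (limma adjusted p = 0.394). The difference between Nr2f1 and this neighbour was not tested.

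Nr2f2 (chr7:70351944-70366735, minus strand), the other COUP-TF receptor, stood at 3.52, 3.16 and 6.21 FPKM in the WT libraries and at 3.38, 6.00 and 4.23 in the cKO libraries. The groups overlapped fully, and the highest library of each was HC-10 and HM-13. The log2 fold change was 0.08 with a wide 95% interval of -0.50 to 0.66 (limma adjusted p = 0.850), from 161 to 279 reads per library. A smaller row of Nr2f2 averaged 0.576 FPKM in WT and 0.375 in cKO and was not tested. The log2 ratio of Nr2f2 to Nr2f1 was -5.26, -5.39 and -5.09 in WT and -6.09, -5.42 and -5.90 in cKO, a difference of -0.56 (exact two-sided permutation p = 0.1, 0.133 adjusted over 4 ratios).

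Sp8 (chr12:118846329-118852576, plus strand), a zinc-finger factor of the rostral cortex that acts with FGF8, stood at 0.675, 1.16 and 0.503 FPKM in the WT libraries and at 0.908, 0.466 and 0.614 in the cKO libraries. These values rest on 18 to 66 reads, and the groups overlapped. With no filter on low values the log2 fold change was -0.09 (limma adjusted p = 0.756), and with so few reads no difference was detectable. The Nr2f1 to Sp8 ratio differed by 0.86 on the log2 scale (exact two-sided permutation p = 0.3, and 0.3 adjusted over 4 ratios). It was 0.41 without HC-8 and 1.35 without HC-10.

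By mean FPKM in WT the order was Emx1 (186), Nr2f1 (160), Emx2 (158), Dmrta2 (134), Lhx2 (106), Dmrt3 (42.9), Nr2f2 (4.30) and Sp8 (0.778). In cKO it was Nr2f1 (246), Emx2 (240), Emx1 (167), Dmrta2 (148), Lhx2 (94.5), Dmrt3 (68.5), Nr2f2 (4.54) and Sp8 (0.663). In WT, Emx1, Nr2f1 and Emx2 had overlapping library values, as had Emx2 and Dmrta2, while Dmrta2, Lhx2, Dmrt3, Nr2f2 and Sp8 each lay apart from the next. In cKO the library values of Nr2f1 and Emx2 overlapped, as did those of Emx1 and Dmrta2 and of Lhx2 and Dmrt3, while Emx1 lay below Emx2 and Lhx2 below Dmrta2. Levels of genes with several transcripts are uncertain in this table. The 6131 symbols with 1 RefSeq mRNA had a median of 10.45 FPKM and the 3409 symbols with 2 or more had a median of 1.90, and Gapdh, used by every cell, was listed at 1.26 FPKM in WT. Emx1, Emx2, Dmrta2 and Dmrt3 have 1 RefSeq mRNA, Lhx2 and Nr2f2 have 2, and Nr2f1 and Sp8 have 3, so the order across these classes is uncertain.

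Within each group, 1 library departed from the others in a shared pattern, HC-10 in WT and HM-13 in cKO. In HM-13, Rn45s held 29.7% of the reads. Tubb3, Tbr1, Neurod6, Neurog2 and Dcx were highest in HC-10 among WT and in HM-13 among cKO libraries. Tubb3 stood at 778, 884 and 1059 FPKM in WT and at 611, 895 and 629.5 in cKO. Tbr1 stood at 98.2, 97.9 and 114 in WT and at 72.1, 102 and 72.2 in cKO. Eomes was highest in HM-13 but lowest in HC-10. The part of these markers in the results was not tested. HC-10 had 85.7% of the mean Emx2 level of the other 2 WT libraries, 67.1% of the Dmrt3 level and 54.9% of the Sp8 level, but 159% for Nr2f1 and 186% for Nr2f2. HM-13 had 68.6% of the mean of the other 2 cKO libraries for Emx2, 65.7% for Dmrt3 and 61.3% for Sp8, with 106% for Nr2f1 and 158% for Nr2f2. Lhx2 (90.7% in HC-10 and 78.0% in HM-13) and Dmrta2 (91.1% and 87.55%) were also below the other libraries, and Emx1 stood at 104% and 82.8%. So in both libraries Emx2, Dmrt3 and the rostral factor Sp8, the last on few reads, were low where Nr2f2 was high. Sp8 had 24 reads in HC-10 and 18 in HM-13. Whether the low level was particular to caudomedial factors was not tested.

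Genes of the cortical hem were far lower in HC-10 than in the other WT libraries, while in HM-13 they were less low and did not all follow. The 10 of 11 listed hem and choroid plexus genes with a row summed to 379 and 459 FPKM in HC-1 and HC-8 and to 55.8 in HC-10, while the cKO sums were 279, 223.5 and 272. In HC-10, the WNT agonists Rspo1 and Rspo3 stood at 11.0% and 15.4% of the mean of the other 2 WT libraries, the hem ligand Wnt3a at 2.54%, and the choroid plexus gene Ttr was counted with 1 read. In HM-13 Rspo1, Rspo3, Wnt8b and Wnt3a stood at 65.7%, 73.65%, 62.5% and 55.4% of the mean of the other 2 cKO libraries. Wnt2b stood at 94.0% and Ttr at 149%, and Lmx1a in HM-13 (7.025 FPKM) lay between HM-5 (6.76) and HM-16 (9.43). None of the 9 hem genes tested was called, with 0 at an unadjusted p under 0.05 and 0 by voom. Without HC-10, Wnt2b was called lower in cKO (log2 fold change -0.94, limma adjusted p = 0.00829). In that fit Ttr (-1.39), Wnt3a (-0.91), Rspo1 (-0.85), Lmx1a (-0.71), Rspo3 (-0.45) and Wnt8b (-0.21) also had values below 0 and were not called (limma adjusted p = 0.0583 to 0.553). The part of this difference in the results was not tested. With HC-10 and HM-13 both left out, an alternative chosen after seeing the data, Emx2 (log2 fold change 0.69, adjusted p = 0.00609), Nr2f1 (0.85, adjusted p = 0.00500) and Dmrt3 (0.675, adjusted p = 0.0106) were all called higher by limma, among 1115 genes called in that fit. HM-13 was the cKO library nearest to WT for Emx2 and Dmrt3, and HC-10 the WT library nearest to cKO for Nr2f1. Leaving these out favoured the 3 calls, which are therefore no separate support. HC-10 was also the lowest WT library for Emx2 and Dmrt3, and leaving it out worked the other way for them.

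**Figure D4:**
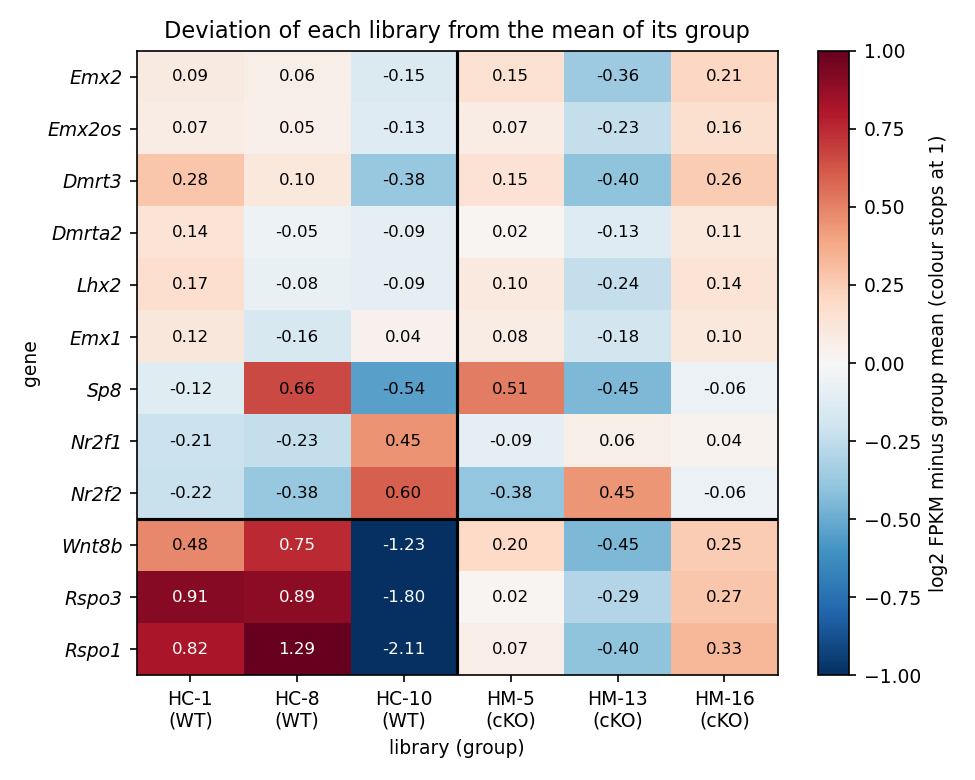
Log2 FPKM of each library minus the mean of its own group, for the factors and Emx2os (above the line) and 3 hem genes (below it); red is above and blue below the group mean. HC-10 and HM-13 are below their group mean for Emx2, Dmrt3, Sp8 and the 3 hem genes shown and above it for Nr2f1 and Nr2f2. Hem and choroid plexus genes not shown did not all follow in HM-13. There Wnt2b stood at 94.0% and Ttr at 149% of the mean of the other cKO libraries.

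Ventral telencephalic markers followed another split of the libraries. The 5 of 13 listed genes with a row summed to 5.39 FPKM in HC-1 against 54.9 and 41.1 in HC-8 and HC-10, and to 1.54 in HM-5 against 17.5 and 23.1 in HM-13 and HM-16. Dlx2, a ventral homeobox gene, stood at 3.74, 38.3 and 26.5 FPKM in WT and at 1.43, 11.8 and 13.1 in cKO, and Gsx2 and Isl1 had no read in HM-5. Nr2f1 and Nr2f2 are also expressed in ventral territories, and the part of these markers in the results was not tested. None of the 3 ventral genes tested was called, with 0 at an unadjusted p under 0.05 and 0 by voom. The 5 of 17 listed diencephalon, midbrain and eye genes with a row summed to 14.4 to 21.0 FPKM in WT and 9.69 to 13.8 in cKO. None of the 2 tested was called by limma or voom, both had an unadjusted p under 0.05, and their part in the results was not tested.

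Among rostral FGF signals and their feedback genes, the 9 of 17 listed genes with a row were all tested. By limma 4 fell and none rose, where 8.39% of all genes tested were called lower, and voom called 3. The median log2 fold change was -0.50, beside -0.01 over all genes. Fgf15, a ligand of the rostral midline and the ventricular zone, stood at 11.7, 27.4 and 11.8 FPKM in the WT libraries and at 2.496, 3.73 and 3.52 in the cKO libraries. The groups did not overlap, and Fgf15 fell to 19.15% of its WT mean (log2 fold change -1.98, SE 0.31, limma adjusted p = 0.00716); it was called in all 6 fits with 1 library left out. Spred1, an inhibitor of the RAS-ERK pathway, fell from 27.0 to 18.8 FPKM (limma adjusted p = 0.0190). Etv4, an ETS factor induced by FGF, fell from 1.47 to 0.368 FPKM (adjusted p = 0.0435 by limma), on 0 to 37 reads. It passed the filter of 1 FPKM through the WT libraries alone (2.11, 1.26 and 1.025, against 0.739, 0 and 0.366 in cKO). A fall was therefore favoured by the filter, and Etv4 is 1 of the 4 counted above. Its call was lost when any 1 of 3 libraries was left out, the fits in which it still passed the filter. Spry2, an FGF feedback inhibitor named after its value was seen, fell from 5.36 to 2.78 FPKM (limma adjusted p = 0.0475). The count of called genes was 1 without HC-1 or without HM-5 and 2 without HC-8, HM-13 or HM-16.

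Caudomedial WNT and BMP signals and their readouts gave 1 called gene of 17 tested (20 listed), beside 18.0% of all genes tested. Nkd1, a feedback inhibitor of WNT signalling, rose from 2.45 to 4.14 FPKM (limma adjusted p = 0.0451). The list's median log2 fold change was 0.04, and 2 genes had an unadjusted p under 0.05. Nkd1 kept its call without HC-8 and lost it without any one of the other 5 libraries. The count was 0 without HC-1, HM-5 or HM-16, and 2 without HC-10, where the called genes were others. Hem ligands of this list carry the HC-10 gap given above.

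Of the lateral antihem and boundary genes, 1 of 7 tested (12 listed) was called, beside 18.0% of all genes tested. Tgfa, an EGF-family ligand made at the antihem, rose from 1.85 to 3.75 FPKM (2.03-fold, limma adjusted p = 0.0150). Sfrp2, a secreted WNT antagonist of the antihem that depends on Pax6, stood at 28.0 FPKM in WT and 35.1 in cKO (limma adjusted p = 0.0848). The median of the list was 0.32, with 5 genes at an unadjusted p under 0.05. No gene was called without HM-5, and 2 were called without HM-13.

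Of 36 listed cofactors, paralogues and regulators of the factors, 26 had a row and 23 were tested. Of those tested 6 rose and none fell, where 9.62% of all genes tested were called higher and 8.39% lower. The median log2 fold change of the list was 0.21. Zfpm1 (FOG1), a zinc-finger cofactor of GATA factors, stood at 8.40, 5.42 and 4.77 FPKM in the WT libraries and at 20.2, 17.0 and 23.5 in the cKO libraries. It rose 3.27-fold (log2 fold change 1.58, SE 0.20, limma adjusted p = 0.00374), was called in all 6 fits with 1 library left out, and its groups were far apart. Its paralogue Zfpm2 (FOG2) stood at 4.69 and 4.50 FPKM (limma adjusted p = 0.946). Also called were Dmrta1, Lmo3, a LIM-only protein that rose from 2.49 to 6.11 FPKM (adjusted p = 0.0219 by limma), and the orphan receptors Nr2e1 (41.7 to 54.7 FPKM, adjusted p = 0.0375) and Nr2f6 (16.6 to 21.9 FPKM, adjusted p = 0.0413), the last 2 named after their values were seen. The count was 2 without HM-5 or without HM-16, leaving Dmrta1 and Zfpm1.

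Although Pax6 itself was not analysed, 10 genes known to depend on it in cortical progenitors were all tested. Of these 1 rose and 1 fell, a share near the 18.0% called of all genes tested. Dmrta1 rose as given above. Fabp7, which encodes a lipid carrier of radial glia, stood at 815, 707 and 952 FPKM in the WT libraries and at 272, 429 and 234 in the cKO libraries. It fell to 37.8% of its WT mean (log2 fold change -1.44, limma adjusted p = 0.00643) and was called in all 6 fits with 1 library left out. The list had a median of 0.07 and moved in no common direction, and 4 of its genes were called without HM-13.

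Of 22 listed genes with graded or area-linked expression in cortical neurons, 17 had a row and 11 were tested. They gave 2 called genes, in opposite directions, a share near the 18.0% of all genes tested. Id2, a helix-loop-helix inhibitor, fell from 79.4 to 46.7 FPKM (limma adjusted p = 0.0117), and Lmo3 rose. Tbr1, the T-box factor of early neurons, stood at 103.5 FPKM in WT and 82.2 in cKO (limma adjusted p = 0.130). The median of the list was -0.03. No gene of it was called without HM-5, and 1 was called without HM-16; without HM-13 Tbr1 was called too.

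**Figure D5:**
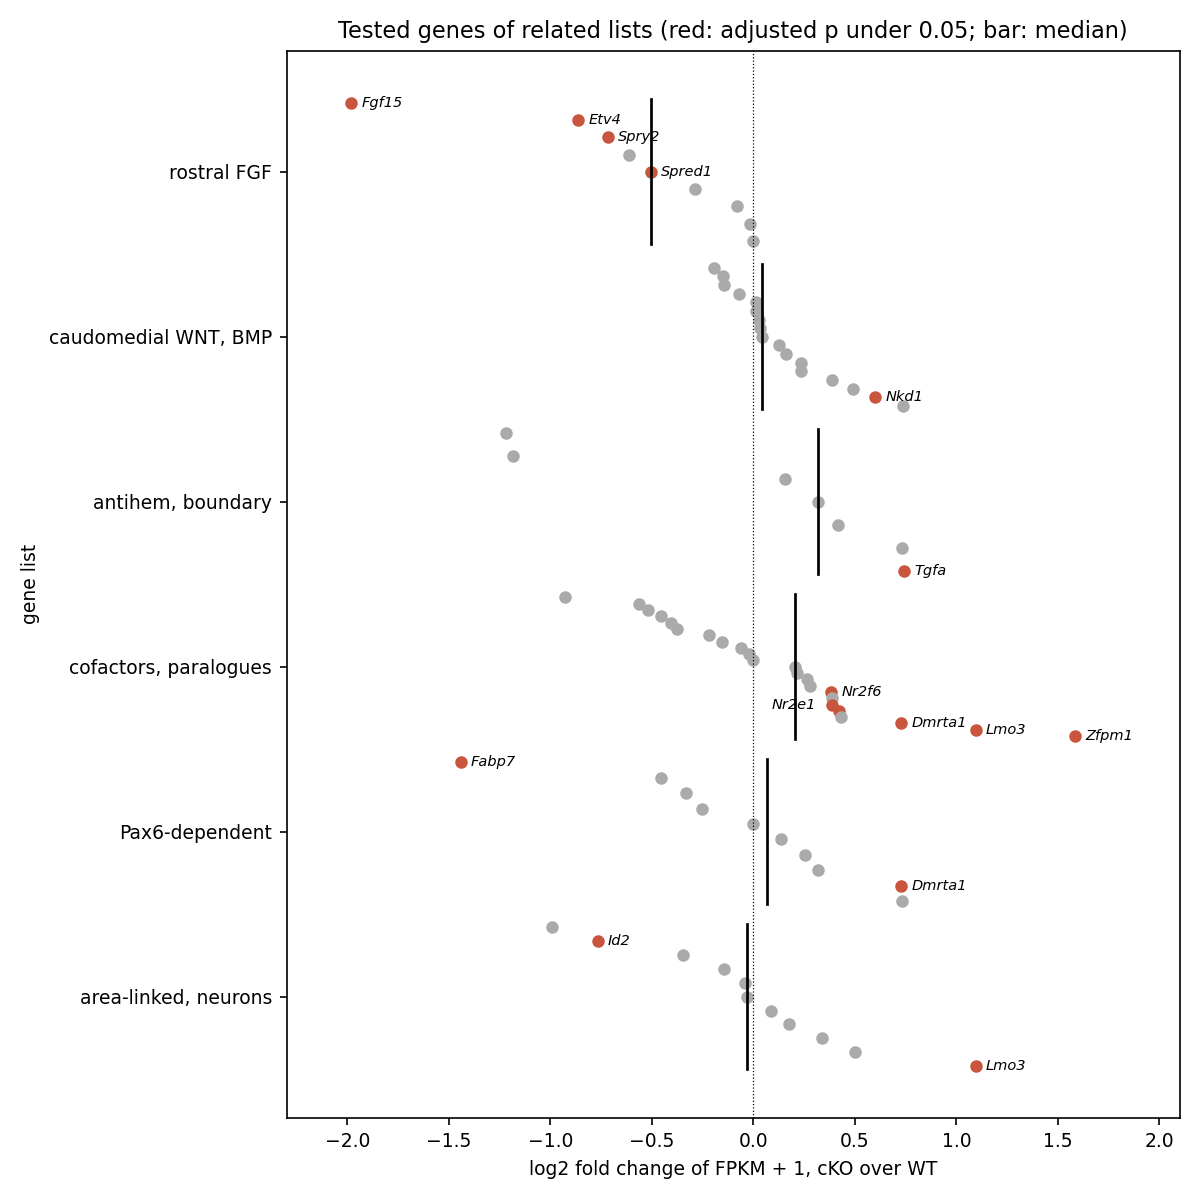
Log2 fold change (cKO over WT, of FPKM + 1) of every tested gene of 6 related lists, with called genes in red, most of them named, and the median of each list as a bar. The FGF list has its median at -0.50 and its 4 called genes below 0, and the 6 called cofactors all lie above 0.

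The genes whose 6 library values were most like those of Emx2, by the root mean square difference of centred log2(FPKM + 1) among 4304 genes, were Lrp1 (0.0427) and AK135691 (0.0454). Lrp1, which encodes an endocytic receptor of the LDL receptor family, stood at 27.8, 27.5 and 22.9 FPKM in WT and 41.6, 28.7 and 43.2 in cKO, low in HC-10 and HM-13 as Emx2 was. For Nr2f1, among 3509 genes, they were Spry3 (0.102), of the Sprouty family, and Sox8 (0.102), an SRY-box factor. Spry3 stood at 1.49, 1.70 and 2.40 FPKM in WT and 3.17, 3.74 and 3.47 in cKO, with HC-10 the highest WT library as for Nr2f1.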

How the data were processed

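RNA-seq of 3 WT and 3 Hdac1 and Hdac2 cKO cortex samples was used as 1 deposited table. Per the submitters' processing notes, bcl2fastq 1.8.4, STAR 2.5.4b, featureCounts 1.6.1, R 3.4.1, DESeq2 1.22.1 and the mm10 build were used; annotation and strand setting were not given in the sources used here. Per the file headers, the authors deposited FPKM per library, a mean normalized count (a signal over all libraries), a log2 fold change, a p-value and a false discovery rate. Columns headed HC were read as control and HM as mutant, and Hdac1 and Hdac2 were low in every HM column.

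Each of 12041 symbols was taken from 1 row, that of its highest mean normalized count; 1950 symbols had several. Whole reads per library were recovered from the FPKM steps, the row lengths and the mean normalized counts (100% of values whole within 0.05 reads). Genes with at least 1 FPKM in at least 3 libraries (9359) were fitted as log2(FPKM + 1) with limma 3.58.1 (R 4.3.3; intensity trend) on group alone, with Benjamini-Hochberg adjustment over all of them and a threshold of 0.05. The log2(FPKM + 1) scale understates the change of low genes. Intervals are 95% limma intervals, and levels are mean ± SD. Reads without molecular identifiers are not independent molecules. The code was tested on simulated data. Alternatives were other pseudocounts, no filter, 3 other scalings, voom on recovered reads, summed rows, and leaving out each library.

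The factors and gene lists were chosen with earlier results of these data known. Named genes were the factors, Hdac1 and Hdac2, up to 3 called genes of each related list with the smallest p (where none passed, the 1 tested gene with the smallest p), markers that move with a result, antisense neighbours with a row, and for each called factor the 2 genes most like it. A gene that the rule names is not reported here. Exceptions are said to be named after their values were seen. The planned ratios of Emx2 and Lhx2 to Pax6 were not computed. Positions are from GENCODE M21 (GRCm38) and start windows from RefSeq (GRCm38.p6).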

Additional observations from a re-analysis of the deposited data

How the results depend on the processing

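Emx1, Lhx2 and Dmrta2 kept their direction and missed the threshold under all 15 alternatives run for each. Scaling to library totals of recovered reads, which lets the ribosomal RNA of HM-13 weigh in, lowered the changed genes to 515 and the called factors to 0, with log2 fold changes of 0.49 for Emx2 (limma adjusted p = 0.208), 0.56 for Nr2f1 (0.119) and -0.0034 for Nr2f2. Without HC-10 and HM-13, chosen after seeing the data, 1115 genes changed and Dmrt3 passed at 0.675. Leaving out HM-13, the lowest cKO library for Dmrt3, favoured that call. With voom on recovered reads Dmrt3 passed at 0.68. The cause was not tested. With 1 library left out, the ranges were 511 to 1773 changed genes, 0 to 2 called factors, 0.48 to 0.77 for Emx2, 0.54 to 0.88 for Nr2f1, -0.10 to 0.32 for Nr2f2 and 0.48 to 0.86 for Dmrt3. The Nr2f2 values without HC-1, HC-8 and HM-13 were -0.01, -0.07 and -0.10. The called genes ranged from 1 to 3 for FGF, 0 to 2 for WNT and BMP, 0 to 2 for the antihem, 2 to 8 for cofactors, 2 to 4 for Pax6-dependent genes, 0 to 3 for area-linked genes and 0 to 1 for antisense neighbours. The log2 ratio differences kept their sign under every alternative run and moved by less than the larger of the 2 group SDs, with ranges of 0.64 to 0.85 for Emx2 to Emx1, 0.41 to 1.35 for Nr2f1 to Sp8, -0.75 to -0.41 for Nr2f2 to Nr2f1 and -0.66 to -0.38 for Dmrta2 to Dmrt3.

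No paired analysis was possible because the columns of the table carry no replicate numbers that match those of the sample titles. Leaving out a library leaves fewer samples for each fit, and with 3 against 3 an exact test of 1 value cannot go below p = 0.1. Sp8, at 18 to 66 reads per library, is limited by its few reads.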
